A study of Saccharomyces cerevisiae with 2 samples.

Results

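The long terminal repeats (LTRs) of the Ty retrotransposons of budding yeast were set against the peaks of Vid22 on the genome. All features annotated as long terminal repeats on the 16 nuclear chromosomes of the sacCer3 assembly in RefSeq were taken, whether alone or at the ends of a full Ty element, which gave 384 LTRs. They held 112673 bases, or 0.933% of the nuclear genome. Each LTR, and the LTR widened by 500 bp on both sides, was compared with the peaks, and LTRs at most 1 kb from a nuclear tRNA gene were compared with those farther away and by Ty class. Chromatin from a strain of the BY4741 background that expresses Vid22 with a 13Myc tag, grown in YEP, was immunoprecipitated with an antibody against Myc. The methods of the study describe the control as a wild type (no tag) strain, whereas the label of that library names no antibody, and which of the accounts holds is not known. DNA of 2 ChIP experiments was pooled, each of the 2 conditions had 1 library, and no test between samples was possible. The deposited list of the Vid22-13Myc library, called by MACS2 against the control, had 811 peaks, of which the 445 with a -log10 q of at least 9 were used unless the whole list is named. The threshold in the methods can also be read as 10 or more on this scale, and then 413 peaks remain, with 12.8% of LTRs overlapped and 34.1% with a peak within 500 bp in place of 13.3% and 35.2%. The number of reads behind each peak is not in the list. Shares are given with 95% Wilson intervals and differences of shares with 95% Newcombe intervals, which cover counting alone. LTRs are not replicates of a condition, and neighbouring LTRs can share a peak.

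An LTR is the direct repeat that bounds a Ty element, and recombination between the 2 LTRs of an element leaves a solo LTR behind. Ty elements move through an RNA copy that is reverse transcribed and integrated again. Ty1, Ty2, Ty3 and Ty4 integrate upstream of genes transcribed by RNA polymerase III, most of which are tRNA genes. Ty3 does so within a few bases of the start of transcription and Ty1 over a wider window, whereas Ty5 integrates into the silent chromatin of telomeres and of the HM loci. The LTRs of Ty1 and Ty2 are called delta, those of Ty3 sigma, those of Ty4 tau and those of Ty5 omega. Vid22 is a nuclear protein that acts with Tbf1, a factor that binds TAGGG repeats, and VID22 is studied here for its role at G-quadruplex (G4) structures.

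To show how the repeats, the tRNA genes and the summits lie relative to each other, sequences are printed for 1 LTR of each class, chosen as the overlapped LTR nearest to a summit. They are in sacCer3, from RefSeq, on the plus strand from 5′ to 3′, with the bases of the chosen LTR in capitals and all other DNA in lower case. The Ty1 sequence is chrXI:84036-84193, which ends at the summit, 78 bp from the LTR, and the tRNA-Leu gene YNCK0004W starts after it at position 84208. The Ty2 sequence is chrII:9345-9624. Its lower-case bases 9425 to 9518 are a whole Ty1 LTR, which ends 65 bp from the tRNA gene, and it holds the first bases of the tRNA-Leu gene YNCB0001W from position 9583, and the summit lies at 9690. The Ty3 sequence is chrIV:1175733-1175825 and ends at the summit, 13 bp from the LTR and just before the tRNA-Met gene EMT1, which starts at 1175829. The Ty4 sequence is chrXV:710028-710279, which holds the whole of the initiator tRNA-Met gene IMT1 (positions 710201 to 710272) and ends at the summit. The Ty5 sequence is chrIII:979-1258, inside a peak whose summit lies at position 317, on the side of the chromosome end.
Ty1 edge: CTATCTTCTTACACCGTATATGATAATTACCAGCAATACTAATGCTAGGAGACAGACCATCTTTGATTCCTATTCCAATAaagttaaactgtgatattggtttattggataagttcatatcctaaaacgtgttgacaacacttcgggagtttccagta
Ty2 edge: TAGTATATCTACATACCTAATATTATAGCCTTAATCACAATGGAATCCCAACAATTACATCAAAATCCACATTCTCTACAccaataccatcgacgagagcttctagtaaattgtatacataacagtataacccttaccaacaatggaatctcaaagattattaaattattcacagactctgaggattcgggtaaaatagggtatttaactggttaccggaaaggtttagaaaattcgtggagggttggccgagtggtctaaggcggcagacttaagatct
Ty3 edge: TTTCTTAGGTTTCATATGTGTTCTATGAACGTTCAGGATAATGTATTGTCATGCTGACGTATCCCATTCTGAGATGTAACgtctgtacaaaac
Ty4 edge: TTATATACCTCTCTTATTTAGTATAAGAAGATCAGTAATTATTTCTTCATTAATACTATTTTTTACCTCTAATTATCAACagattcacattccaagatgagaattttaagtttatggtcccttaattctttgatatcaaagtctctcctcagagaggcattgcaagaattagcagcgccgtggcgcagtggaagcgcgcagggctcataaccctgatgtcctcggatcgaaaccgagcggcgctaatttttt
Ty5 edge: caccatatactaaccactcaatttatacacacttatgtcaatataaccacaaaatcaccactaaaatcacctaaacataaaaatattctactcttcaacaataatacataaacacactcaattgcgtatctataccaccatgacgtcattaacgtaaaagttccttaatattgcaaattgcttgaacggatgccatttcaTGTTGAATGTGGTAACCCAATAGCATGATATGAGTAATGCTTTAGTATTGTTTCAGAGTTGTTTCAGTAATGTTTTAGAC
In the Ty1, Ty2, Ty3 and Ty4 sequences the LTR ends before the tRNA gene begins, and the summit lies in lower case or beyond the printed window. The distance from the chosen LTR to the tRNA gene is 17 bp for the Ty3 LTR, against 93 bp for the Ty1, 94 bp for the Ty4 and, with the Ty1 LTR in between, 159 bp for the Ty2 LTR.

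By class the annotation gave 267 Ty1, 32 Ty2, 42 Ty3, 35 Ty4 and 8 Ty5 LTRs. Lengths ran from 28 to 715 bp with a median of 331.5 bp, and the 384 LTRs had 339 distinct sequences. Of the first 10 bases, TGTTGGAATA opened 117 of the Ty1 and 27 of the Ty2 LTRs, TGTTGTATCT opened 27 of the Ty3 LTRs, and TGTTGGAACG opened 18 of the Ty4 LTRs. A total of 272 LTRs were solo, and 112 were counted as flanking a full Ty element, 96 of them wholly inside the annotated element, 4 partly overlapping it and 12 touching it from outside. Of the 112, 13 were labelled as another class than the element they adjoin or lie in. Among them are the LTRs at the ends of the full Ty2 elements YDRWTy2-2 and YDRWTy2-3, which are labelled Ty1. The Ty1 and Ty2 classes used here are those of the label alone. Of all LTRs, 262 (68.2%) lay within 1 kb of a tRNA gene. These were 37 of the 42 Ty3, 26 of the 35 Ty4, 185 of the 267 Ty1 and 14 of the 32 Ty2 LTRs, and none of the 8 Ty5 LTRs. The median distance of those near a tRNA gene was 17 bp for Ty3, with 34 of the 37 at 15 to 19 bp, 168 bp for Ty2, 191 bp for Ty1 and 242 bp for Ty4. Ty5 LTRs had a median distance of 5961 bp to a chromosome end. Among the 262 near LTRs, 247 lay upstream of the tRNA gene, 13 downstream, and 2 overlapped it. The upstream LTRs were in either orientation, with 106 on the strand of the tRNA gene and 141 on the opposite one.

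Vid22 peaks touched LTRs at their edges and were not centred on them. A peak overlapped 51 of the 384 LTRs, or 13.3% (10.2 to 17.0), against 6.04% of 36351 consecutive windows of 332 bp that tile the nuclear genome (2197 windows), a difference of 7.24 percentage points (4.19 to 11.0). With the flanks of 500 bp, 135 LTRs (35.2%, 30.5 to 40.1) had a peak, against 9.43% of the tiles, a difference of 25.7 points (21.1 to 30.6). However, no summit of any of the 811 peaks lay inside an LTR (0 of 384, which allows a share of up to 0.99%). The share of tiles that hold a summit was not taken, so this count has no background beside it. In 96 LTRs within 1 kb of a tRNA gene and 68 farther away, under 50% of positions start a 50-mer found once in the nuclear genome. The part of read placement in the absence of summits was not tested. The peaks covered a median of 50 bp of the 51 overlapped LTRs (4 to 269 bp) and at least 50% of the LTR in 9 of them, and the summits lay a median of 165 bp away (13 to 3028 bp). Of the 445 peaks, 48 (10.8%) overlapped an LTR, and 3 of these covered more than 1. Using the whole list raised the overlapped LTRs to 55.

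The overlap followed the tRNA genes. Of the LTRs within 1 kb of a tRNA gene, 47 of 262 (17.9%, 13.8 to 23.0) were overlapped, against 4 of 122 (3.28%, 1.28 to 8.13) of those farther away, a difference of 14.7 points (8.26 to 20.1). With the flanks the shares were 128 of 262 (48.9%) and 7 of 122 (5.74%), a difference of 43.1 points (34.9 to 49.8). Tiles with neither an LTR nor a tRNA gene also had more peaks near tRNA genes, with 11.3% overlapped and 40.7% with a peak within 500 bp when near a tRNA gene, and 5.29% and 7.47% when farther. The near LTRs exceeded the near tiles by 6.68 points (2.11 to 12) for overlap and by 8.17 points (1.59 to 14.8) for the flanks. The far LTRs differed from the far tiles by -2.01 points (-4.02 to 2.84) and -1.74 points (-4.68 to 3.90), and both intervals hold 0. The median share of positions that start a 50-mer found once was 31.6% in far LTRs, 94.7% in near LTRs and 100% in far tiles. Among far LTRs with at least 50% of such positions, 4 of 54 were overlapped (7.41%, 2.92 to 17.6), against 0 of 68 with less. With the flanks the counts were 6 of 54 (11.1%, 5.19 to 22.2) and 1 of 68. The shares of the far tiles lie inside the intervals of the 54. The peaks at near LTRs also overlapped tRNA genes: 46 of the 47 overlapped near LTRs shared the peak with their nearest tRNA gene. All 128 near LTRs with a peak within 500 bp had such a peak on a tRNA gene. The summit of the overlapping peak lay inside the nearest tRNA gene for 11 of the 47 (23.4%, 13.6 to 37.2). A shared peak of 8594 bp had its summit 3028 bp from the LTR. Of the 117 near LTRs with a summit of the whole list within 500 bp, the nearest summit lay on the side of the tRNA gene for 116 and on the other side for 1.

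Since near LTRs and near tiles do not lie at the same distances, shares were also taken by distance. LTRs 1 to 100 bp from a tRNA gene were overlapped in 26 of 66 cases (39.4%, 28.5 to 51.5), against 73 of 106 LTR-free tiles (68.9%), a difference of -29.5 points (-43.0 to -14.2). At 101 to 200 bp the shares were 20 of 83 LTRs (24.1%, 16.2 to 34.3) and 31 of 110 tiles (28.2%), a difference of -4.09 points (-16.1 to 8.62). From 201 to 500 bp no LTR was overlapped (0 of 28 and 0 of 39), against 7 of 115 and 7 of 230 tiles, and at 501 to 1000 bp 1 of 44 LTRs was. The 2 LTRs that overlap a tRNA gene had no peak. Within each distance class up to 1000 bp the overlapped share was lower in LTRs than in tiles, and the interval of the difference excludes 0 at 1 to 100 bp alone. The median share of positions that start a 50-mer found once in the nuclear genome was 82.7% in LTRs at 1 to 100 bp and 61.4% at 101 to 200 bp, and 100% in the tiles. Among regions with at least 50% of such positions, the overlapped shares at 1 to 100 bp were 24 of 41 LTRs (58.5%) and 73 of 106 tiles (68.9%), a difference of -10.3 points (-27.5 to 6.26). At 101 to 200 bp they were 16 of 44 LTRs (36.4%) and 31 of 109 tiles (28.4%), a difference of 7.92 points (-7.60 to 24.5), so under this limit the LTRs were lower in 1 of these classes and higher in the other, with 0 inside both intervals. With the flanks of 500 bp, the share of LTRs with a peak was 40.9% at 1 to 100 bp, against 68.9% of tiles, a difference of -28.0 points (-41.6 to -12.7). From 101 to 500 bp it was between 50.0% and 59.0% in LTRs, against 63.5% to 64.5% in tiles, and the intervals of the differences hold 0. At 501 to 1000 bp it was 36.4% in LTRs, against 21.3% in tiles, a difference of 15.1 points (2.10 to 30.1) in the opposite direction.

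**Figure D1:**
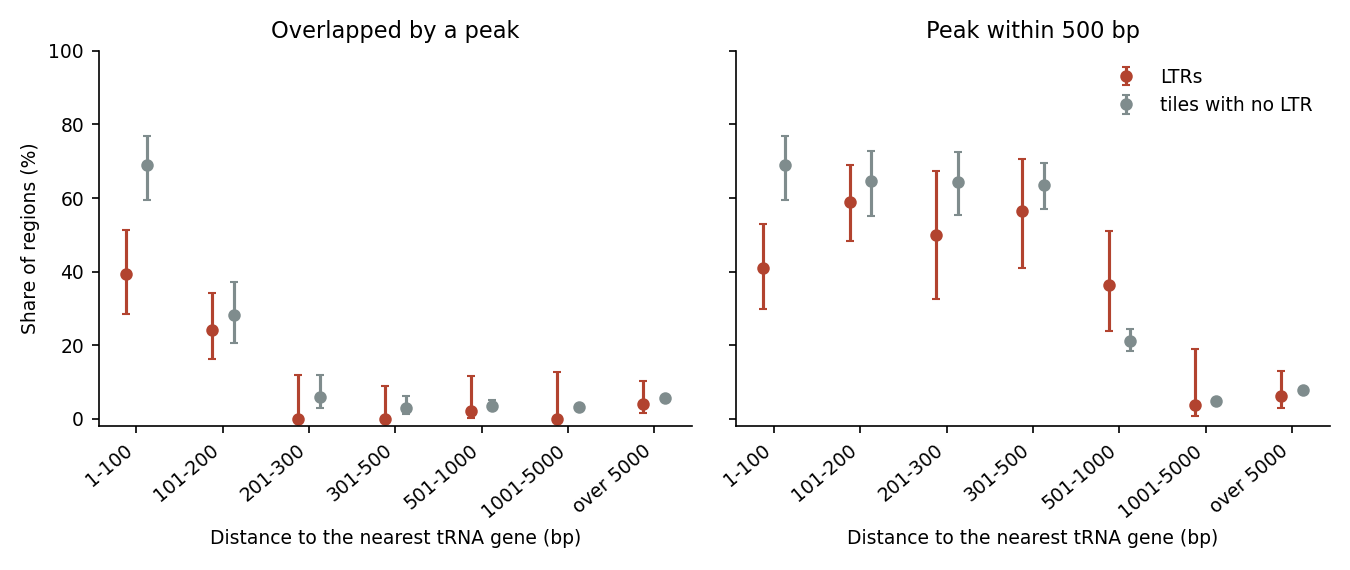
Share of LTRs and of LTR-free genome tiles (percent, points with 95% Wilson intervals) that a Vid22 peak overlaps (left) or approaches within 500 bp (right), by distance to the nearest tRNA gene in bp. Overlap of LTRs is 39.4% at 1 to 100 bp and 24.1% at 101 to 200 bp, against 68.9% and 28.2% of the tiles, and is near 0 beyond; with the flanks it stays at 36.4% or more up to 1000 bp.

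The Ty classes differed in the way peaks reached them. Overlapped were 11 of the 42 Ty3 LTRs (26.2%, 15.3 to 41.1), 34 of the 267 Ty1 LTRs (12.7%, 9.26 to 17.3), 3 of the 35 Ty4 LTRs (8.57%, 2.96 to 22.4), 1 of the 32 Ty2 LTRs (3.12%, 0.554 to 15.7) and 2 of the 8 Ty5 LTRs (25.0%, 7.15 to 59.1). With the flanks of 500 bp the Ty3 count stayed at 11, whereas the others came to 104 for Ty1 (39.0%), 13 for Ty4 (37.1%), 3 for Ty2 (9.38%) and 4 for Ty5. Among LTRs near a tRNA gene, 11 of 37 Ty3 LTRs (29.7%) and 33 of 185 Ty1 LTRs (17.8%) were overlapped, a difference of 11.9 points (-1.81 to 28.7) whose interval holds 0. With the flanks the same shares were 29.7% for Ty3 and 55.1% for Ty1 (102 of 185), a difference of -25.4 points (-39.5 to -7.81). Near Ty3 LTRs lay a median of 17 bp from the tRNA gene and near Ty1 LTRs 191 bp. A peak on the gene can thus reach a Ty3 LTR without flanks, and the classes were not compared at like distances. Peaks covered a median of 92 bp of the overlapped near Ty3 LTRs with the summit 88 bp away, against 37 bp and 170 bp for Ty1. The fold enrichment of the overlapping peaks at the summit was 1.56 to 2.55 for Ty3 (median 1.84) and 1.52 to 6.57 for Ty1 (median 1.87), so that the classes overlapped. Only 19 of the 37 near Ty3 LTRs and 136 of the 185 near Ty1 LTRs had 50% or more positions that start a unique 50-mer, and none of the 14 near Ty2 LTRs had. Of these, 9 of 19 Ty3 LTRs (47.4%, 27.3 to 68.3) and 31 of 136 Ty1 LTRs (22.8%, 16.5 to 30.5) were overlapped, and with the flanks 9 of 19 and 83 of 136 (61.0%, 52.6 to 68.8).

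**Figure D2:**
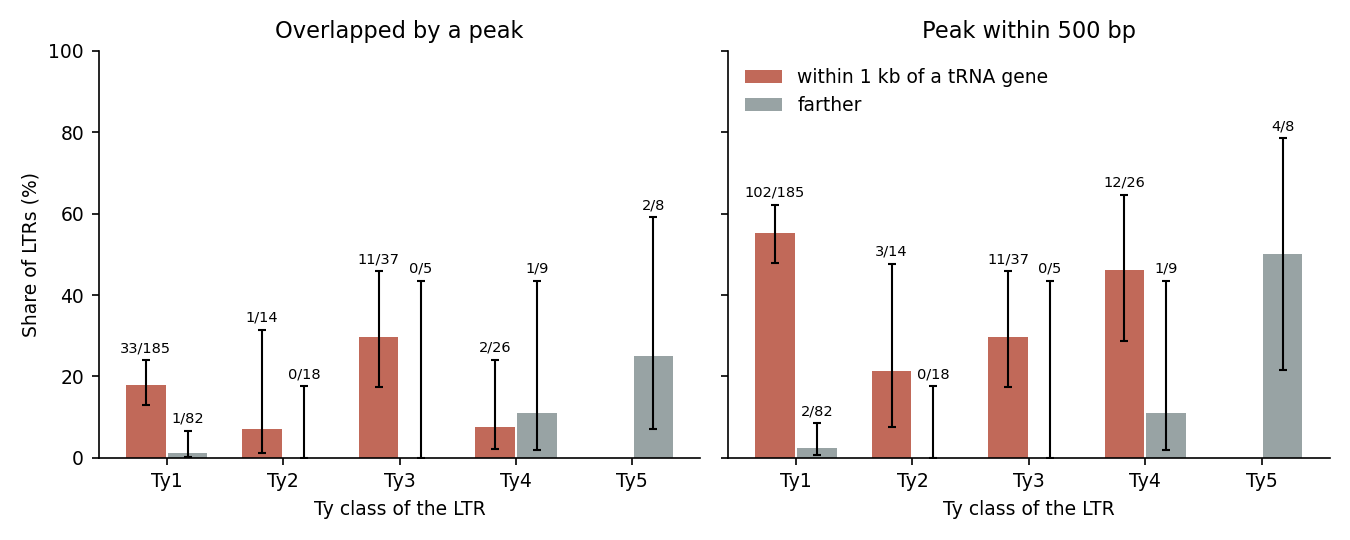
Share of LTRs (percent, bars with 95% Wilson intervals, counts above) overlapped by a Vid22 peak (left) or with a peak within 500 bp (right), by Ty class, for LTRs within 1 kb of a tRNA gene and for those farther. The Ty3 bar is the same in both panels (11 of 37), the Ty1 bar goes to 102 of 185 with the flanks, and Ty5 has no LTR near a tRNA gene.

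Aligned on the edge that faces the tRNA gene, the share of LTRs inside a peak was highest outside the repeat for Ty1 and Ty4. It reached 43.7% of 183 Ty1 LTRs at 260 bp beyond the edge and 38.5% of 26 Ty4 LTRs at 220 bp beyond it, and was 17.5% and 7.69% at the edge itself. For the 37 Ty3 LTRs it was 29.7% at the edge and still 29.7% at 50 bp inside the repeat. At 100 bp from the edge on the side of the repeat it was 16.2% for Ty3, 3.85% for Ty4 and 1.64% for Ty1. These shares are of all the LTRs aligned, and in those shorter than 100 bp this position lies beyond the repeat. The shortest had 67 bp in Ty3, 84 bp in Ty4 and 28 bp in Ty1.

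**Figure D3:**
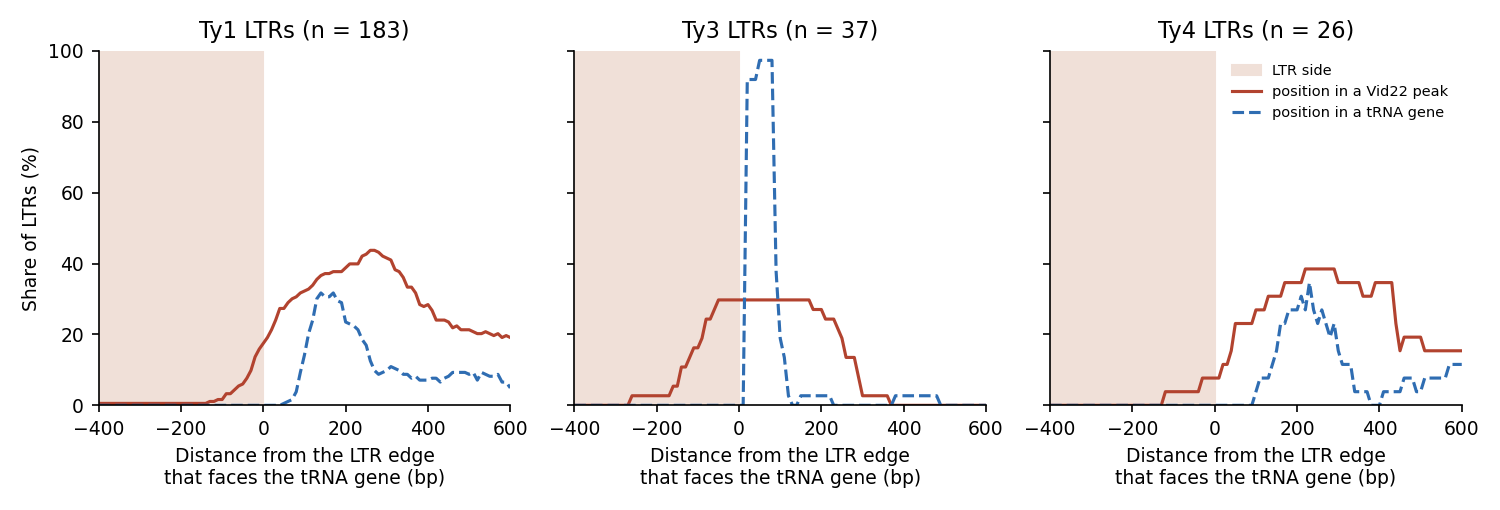
Share of near LTRs (percent) whose position at a given distance in bp from the edge facing the tRNA gene lies in a Vid22 peak (solid line) or in a tRNA gene (dashed line), for Ty1 (n = 183), Ty3 (n = 37) and Ty4 (n = 26), with the LTR side shaded at negative distances. Peaks reach 43.7% of Ty1 and 38.5% of Ty4 LTRs beyond the edge, and the Ty3 plateau of 29.7% runs into the repeat.

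Solo LTRs were overlapped in 46 of 272 cases (16.9%, 12.9 to 21.8) and LTRs that flank a full Ty in 5 of 112 (4.46%, 1.92 to 10.0), a difference of 12.4 points (5.60 to 18.0). Restricted to LTRs near a tRNA gene, the shares were 43 of 215 (20%) and 4 of 47 (8.51%), a difference of 11.5 points (-0.90 to 19.3). The authors kept reads of 50 bp with 1 best position, and the groups differ in how much of their sequence is unique at that length. The median share of positions that start a unique 50-mer was 100% in solo LTRs and 13.7% in flanking LTRs, 31 of which had none. Among near LTRs as a whole, 41 of 166 with at least 50% of such positions were overlapped (24.7%, 18.8 to 31.8), against 6 of 96 with less (6.25%, 2.90 to 13), a difference of 18.4 points (9.48 to 26.3). Among LTRs with at least 50% unique positions, the difference of solo minus flanking was -4.81 points (-33.5 to 12.4). Few flanking LTRs remain under this limit, since the upper quartile of their unique share was 15.8%. The part of read placement in the solo and flanking shares was not tested further. Of the 50 full Ty elements, peaks touched 2, each at an LTR wholly inside the element, and reached the interior of 1, which is the Ty5 element of chromosome III whose first LTR is described below. No background share was taken for regions as long as an element, nor the share of unique positions in the interiors. These counts thus do not show whether peaks are rarer in full elements than elsewhere.

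Seen from the 275 nuclear tRNA genes, of which peaks overlapped 60.4% (166), a neighbouring LTR did not come with more peaks. Of the tRNA genes with an LTR within 1 kb, 95 of 179 (53.1%, 45.8 to 60.2) were overlapped, against 71 of 96 (74.0%, 64.4 to 81.7) with no LTR within 1 kb, a difference of -20.9 points (-31.5 to -8.92). The share was 26 of 65 (40%) with the LTR at 1 to 100 bp, 40 of 68 (58.8%) at 101 to 200 bp and 29 of 44 (65.9%) at 201 to 1000 bp. By the class of the nearest LTR it was 12 of 37 (32.4%, 19.6 to 48.5) for Ty3, 73 of 120 (60.8%, 51.9 to 69.1) for Ty1, 9 of 13 for Ty4 and 1 of 9 for Ty2, and Ty3 minus Ty1 was -28.4 points (-43.6 to -9.98). The DNA around these genes differed in uniqueness, where a median of 75.2% of positions within 250 bp started a unique 50-mer for Ty3, 93.4% for Ty1 and 93.7% without an LTR. Among tRNA genes with at least 90% of such positions, a limit added after the data were seen, 65 of 95 with an LTR (68.4%) and 56 of 75 without (74.7%) were overlapped, a difference of -6.25 points (-19.3 to 7.54). Under the same limit 8 of 13 tRNA genes beside Ty3 and 52 of 74 beside Ty1 were overlapped, a difference of -8.73 points (-36.3 to 14.9). Below 75% of unique positions, 6 of 38 tRNA genes with an LTR and 2 of 3 without had a peak.

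**Figure D4:**
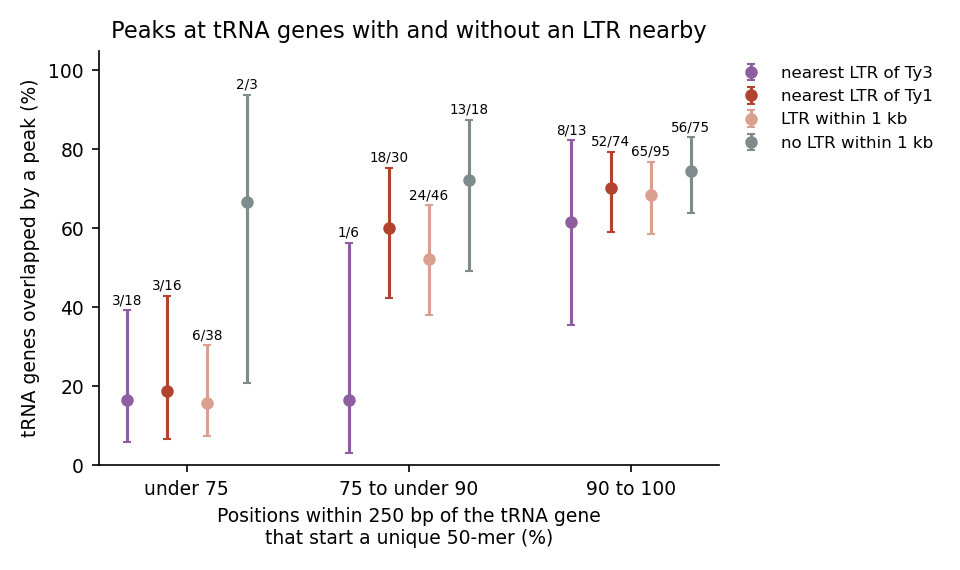
Share of tRNA genes overlapped by a Vid22 peak (percent, points with 95% Wilson intervals, counts above), by the share of positions within 250 bp that start a unique 50-mer, for genes whose nearest LTR is of Ty3 or Ty1, for all genes with an LTR within 1 kb and for genes with none. With an LTR the counts are 6 of 38, 24 of 46 and 65 of 95 from the lowest to the highest class, against 2 of 3, 13 of 18 and 56 of 75 without.

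The peaks of tRNA genes with and without an LTR were of like size. Their median fold was 1.85 in the 95 genes with an LTR (1.52 to 6.98) and 1.93 in the 71 without (1.55 to 5.39). They reached a median of 137 bp upstream and 141 bp downstream of the tRNA gene with an LTR, against 138 bp and 136 bp without. The summit lay a median of 68 bp from the first base of the gene with an LTR (quartiles -0.5 and 80.5 bp) and 1 bp without (quartiles -10.5 and 73.5 bp), so the middle ranges overlap over most of the gene. Among all peaks, the 48 on an LTR had a median fold of 1.85 (1.43 to 6.98), the 117 on a tRNA gene without an LTR 1.87 (1.52 to 5.39) and the 280 on neither 1.87 (1.42 to 6.98). The fold exceeded 3 in 2 of the 48 and 1 of the 117 peaks, against 87 of the 280.

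**Figure D5:**
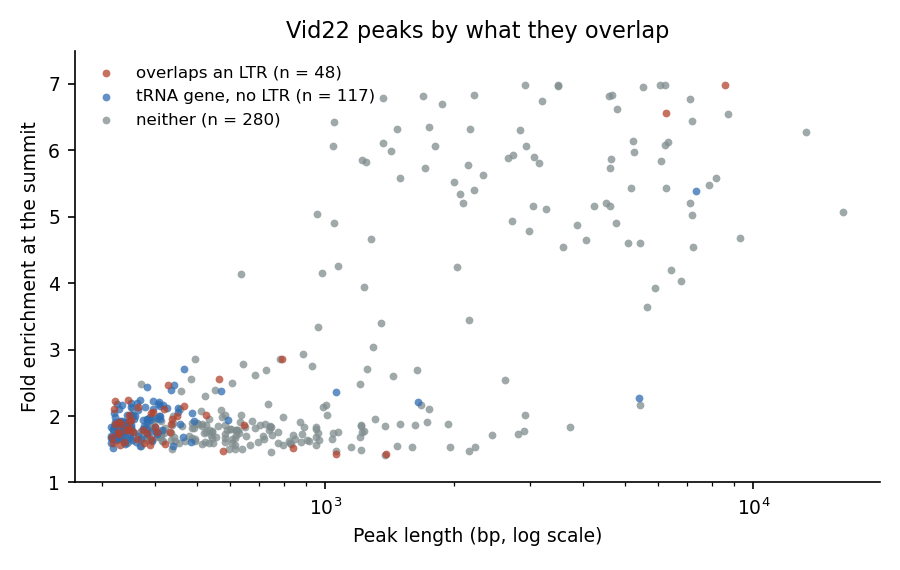
Fold enrichment at the summit against peak length in bp on a log scale for the 445 peaks, coloured by whether they overlap an LTR (n = 48), a tRNA gene but no LTR (n = 117) or neither (n = 280). Peaks on LTRs lie with the short peaks of low fold, with a median length of 386 bp, apart from 2 above a fold of 3.

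Those 2 peaks gave the strongest values at any LTR, and neither was centred near it. The Ty4 LTR at chrVII:110855-111225 was covered over 129 bp by a peak of 8594 bp with a fold of 6.98, whose summit lay 3028 bp away, next to the start of CHC1, the clathrin heavy chain gene. The Ty1 LTR at chrXI:490286-490416 was covered over 89 bp by a peak of 6238 bp with a fold of 6.57, whose summit lay 2698 bp away, next to RPC37, which encodes a subunit of RNA polymerase III. It was the only overlapped near LTR more than 181 bp from its tRNA gene (552 bp) and the only one whose peak did not reach a tRNA gene. The next Ty1 LTR on the same chromosome, chrXI:490464-490787, had a peak of its own with a fold of 2.85 at the tRNA-Arg gene YNCK0017W, with 53 bp covered.

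The other LTRs with the highest folds all shared their peak with a tRNA gene. The Ty3 LTR at chrXII:168043-168380 had the longest covered stretch, 269 bp, with a fold of 2.55 and the summit 14 bp outside the repeat, 4 bp from the start of the tRNA-Ser gene YNCL0002C. On chromosome II 1 peak with a fold of 2.47 overlapped both the Ty2 LTR at chrII:9093-9424, over 4 bp, and the whole of the Ty1 LTR at chrII:9425-9518, which separates it from the tRNA-Leu gene YNCB0001W. The other 4 of the 10 were Ty1 LTRs with 9 to 97 bp covered. They lay at chrVIII:358672-358850 beside a tRNA-Phe gene (fold 2.24), chrIV:1151039-1151368 beside tRNA-Ser (2.23), chrXII:592706-593035 beside tRNA-Leu (2.16) and chrXI:513532-513846 beside tRNA-Asp (2.13). The third Ty4 LTR, at chrXV:710024-710107, touches a full Ty2 and was covered over 35 bp by the peak of IMT1 with a fold of 1.91. The Ty1 LTR at chrIII:295003-295330, which overlaps the annotated right end of the silent mating locus HMR, was covered over 139 bp by the peak of the tRNA-Thr gene YNCC0014W, 154 bp away (fold 1.86, -log10 q 26.5). No peak overlapped the annotated HMR locus itself (chrIII:292388-295034). The other silent mating locus, HML, was overlapped by a peak (fold 2.79, -log10 q 42.2), and its nearest LTR, of Ty5, lay 6824 bp away. The share of unique positions in HMR and HML was not taken, so the part of read placement in this contrast was not tested.

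The 7 LTRs with a peak among those farther than 1 kb from a tRNA gene lay either beside other polymerase III genes or near chromosome ends. The Ty1 LTR at chrXII:365810-366144 lay 91 bp from SNR6, the gene of the U6 spliceosomal RNA, and the SNR6 peak (fold 1.75, -log10 q 14.6) covered 68 bp of it. The Ty4 LTR at chrV:118230-118551 lay 195 bp from RPR1, the gene of the RNase P RNA, and was covered over 36 bp by the RPR1 peak (fold 1.48, -log10 q 9.95, below the other reading of the threshold). The Ty1 LTR at chrV:431490-431822 lay 270 bp from SNR52, a small nucleolar RNA gene, and 65 bp from its peak (fold 1.63, -log10 q 15.8). In these 3 cases, as at tRNA genes, the summit lay in or beside the polymerase III gene and outside the LTR. SCR1, the gene of the signal recognition particle RNA, has a Ty1 LTR at a distance of 226 bp and had a peak in the whole list alone (fold 1.23, -log10 q 4.01), which did not reach the LTR. RNA170 had no peak and no LTR nearer than 93950 bp.

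The other 4 were Ty5 LTRs. At the left end of chromosome III, a peak of 1387 bp (positions 260 to 1646, fold 1.43, -log10 q 13.6) covered all 251 bp of the LTR at chrIII:1179-1429, with its summit at position 317. Near the right end of chromosome XI, 25 bp of the LTR at chrXI:665430-665668 lay in a peak with a fold of 1.43 whose summit was 940 bp away. The LTRs at chrV:568791-569024 and chrVII:838-1079 lay 118 bp and 87 bp from peaks with folds of 2.49 and 2.19. All 4 peaks had a TAGGG, on either strand, within 100 bp of the summit and a predicted G4 element within 200 bp of the peak, and so did 21 of the 35 peaks within 20 kb of a chromosome end (60%, these 4 included) and 66 of all 445 peaks (14.8%). Of the 3 peaks beside polymerase III genes, that of SNR52 had a TAGGG and none had such an element. A limit added after the data were seen also left out the LTRs within 1 kb of any of these polymerase III genes. It left 2 of 119 LTRs overlapped (1.68%, 0.462 to 5.92) and 4 of 119 with a peak within 500 bp (3.36%, 1.31 to 8.32). The LTRs it removed are the 3 named above with a peak at such a gene, so the lower shares follow from the choice. The 5.29% and 7.47% of far tiles lie inside these intervals, but tiles beside these genes were not left out.

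At the limit of 1 kb, the LTR just inside was the Ty4 LTR at chrX:203398-203768 (967 bp) and the one just outside the Ty1 LTR at chrV:137324-137639 (1027 bp), with the nearest peaks 849 bp and 889 bp away. In the other classes the LTRs just inside were Ty1 chrV:249109-249331 (955 bp), Ty2 chrXV:664813-665145 (928 bp) and Ty3 chrXIV:546423-546714 (380 bp). Those just outside were Ty2 chrXIV:562033-562364 (1268 bp), Ty4 chrXVI:881487-881830 (1118 bp) and Ty3 chrVII:712206-712545 (5027 bp). None of these 8 had a peak within 500 bp.

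The sequence features searched were rarer in the LTRs as a whole than in the tiles. TAGGG, read on both strands, was found in 50 of the 384 LTRs (13%), against 22.4% of the tiles. It was present in 29 of the 42 Ty3 LTRs (69.0%), against 19 of the 267 Ty1 LTRs (7.12%). The most frequent context in Ty3 LTRs, found 23 times, lies on the strand opposite to the LTR and is printed from 5′ to 3′ with the motif in capitals.
Ty3 TAGGG context: aacagtctTAGGGaagtaacc
Peaks overlapped 5 of the 29 Ty3 LTRs with TAGGG (17.2%, 7.60 to 34.5) and 6 of the 13 without it (46.2%, 23.2 to 70.9). These Ty3 copies share their sequence, so they are not separate occurrences of the motif. Of the 11 overlapped among 37 near Ty3 LTRs, 9 were among the 19 with at least 50% of positions that start a unique 50-mer. Ty3 LTRs with and without TAGGG were not compared at like length or unique share, and the part of read placement was not tested. A predicted G4 element, taken as 4 or more runs of 3 G on either strand, separated by 1 to 25 bases, overlapped 1 LTR (0.26%), against 1.91% of the tiles, and one lay within 200 bp of 4 LTRs (1.04%), against 3.77% of the tiles. None of the 51 overlapped LTRs was among these 4, a count too small to set apart from the share over all LTRs. GGTTCGA, the core of the B box that polymerase III genes carry inside their transcribed part, was absent from all 384 LTRs on both strands, against 2.39% of the tiles and 151 of the 275 tRNA genes (54.9%). A match describes the letters alone and does not show that a factor binds there.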

How the data were processed

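According to the methods of the study, the authors aligned reads of 50 bp with bowtie, kept those with 1 best position, removed duplicates with samtools and called peaks with MACS2; versions are not given in the sources used here. The deposited integer score is 10 times the -log10 q-value, rounded down. The fold enrichment deposited is a ratio, the tagged library over the control at the summit, as the authors' MACS2 wrote it. The deposited p-value and q-value, both as -log10, are those at the summit, and the lowest -log10 q is 1.34. Depths are not in the list. The false discovery rate threshold of the methods was read as it is written, as a -log10 q of at least 9. The number of peaks the study reports, 413, is the number with a -log10 q of at least 10.

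LTRs, Ty elements and tRNA genes came from the RefSeq annotation of sacCer3. The annotation gives the LTRs no names, so they are called by class and position. Distances run from the nearest annotated base of 1 feature to that of the other. Whether the strain carries each LTR of the assembly was not examined. Unique positions start a 50-mer that occurs once on both strands of the nuclear genome. Tiles are consecutive windows of 332 bp. LTRs named in the text were those overlapped farther than 1 kb from a tRNA gene, the 10 with the highest fold, Ty4 and Ty5 LTRs at a peak, LTRs beside other polymerase III genes or HM loci, and those next to the 1 kb limit. The members, lists and comparisons were chosen with earlier results of these data known. Overlap and interval code was tested on simulated data. Python 3.11.15, numpy 2.4.6, scipy 1.17.1 and matplotlib 3.10.9 were used.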

Additional observations from a re-analysis of the deposited data

How the results depend on the processing

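Of 91 alternatives, 56 gave a value inside the main interval, 32 a value outside it and 3 the opposite sign. A -log10 q of at least 20 (202 peaks) gave 6.25% of LTRs overlapped, 15.1% with a peak within 500 bp, 6.02% of delta, 11.9% of sigma and 2.86% of tau LTRs overlapped, a near minus far difference with flanks of 20.9 points and a median fold of 2.08. Requiring 50% of the LTR to be covered gave 2.34% of all LTRs, 1.00% of delta, 11.9% of sigma and 0% of tau LTRs, 2.23 points for near minus far and 2.05 points for solo minus flanking. Requiring the summit inside the LTR gave 0 for all of these. A summit within 500 bp gave 28.4%, and flanks of 200 bp gave 26.6% and 30.5 points for near minus far. Merging LTRs up to 1000 bp apart into 243 loci gave 19.3% overlapped and 20.7 points. Solo LTRs alone gave 44.1% with a peak within 500 bp and 16.1% of delta LTRs overlapped. LTRs with at least 50% unique positions gave 20.5% overlapped, 46.8% with flanks, 18.5% of delta LTRs, and -4.81 points for solo minus flanking. With only the peaks that overlap no tRNA gene, 1.30% of LTRs were overlapped and 2.34% had a peak within 500 bp, and near minus far turned to -2.90 points, and -4.97 points with flanks, as this set leaves out the peaks of tRNA genes by construction. At least 90% unique positions, added after the data were seen, gave -6.25 points for tRNA genes with minus without an LTR. No paired analysis was possible because each condition has 1 library, and no replicate could be left out.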

Other observations

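Chromosome XIV, noticed after the values were seen, held 16 LTRs, 13 of them near a tRNA gene, and none had a peak within 500 bp. Peaks overlapped 1 of its 14 tRNA genes, and 1 of the 5 with at least 90% unique positions within 250 bp. The chromosome had 9 peaks, or 11.5 per Mb, against 22.2 to 74.0 per Mb on the other 15 chromosomes. The other chromosome with no overlapped LTR was chromosome I, where 4 of 9 LTRs lay near a tRNA gene and 2 had a peak within 500 bp. Chromosome XII had the most overlapped LTRs, 8 of 32, and chromosome XI the highest share, 6 of 14.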
